A study of Mus musculus with 6 samples.

Results

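miR-132 and miR-212 are a pair of microRNAs made from neighbouring hairpins, and all 4 of their mature forms (miR-132-3p, miR-132-5p, miR-212-3p and miR-212-5p) were measured here, out of 1906 mature miRNAs listed in each count table. They were chosen by name, with earlier results of these data known. The small RNA came from primary oligodendrocytes of C57BL/6N mice, prepared at embryonic day 14, and from the extracellular vesicles (EVs) that such cells released. The culture medium was Sato with 1% horse serum; cells were then washed, and EVs were gathered over 24 h in serum-free Sato medium supplemented with B27. The group called EVs held 3 libraries, from vesicle pellets spun at up to 100000 g at 5 to 6 days in vitro, and the group called Cells held 3 libraries of whole cells at 6 days in vitro. No library of medium alone was analysed here, so RNA inside vesicles, RNA in other particles of the pellet and RNA brought by the medium cannot be told apart.

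A miRNA hairpin is cut into a short duplex, from which one strand is loaded into an Argonaute protein and guides it to target transcripts, while the other strand is mostly discarded. The strand from the left side of the hairpin is called 5p and that from the right side 3p. In neurons the miR-132 and miR-212 hairpins are processed from one primary transcript that the transcription factor CREB induces upon synaptic activity or BDNF, and miR-132-3p is known for promoting dendrite growth. In the sequence table used here, from RefSeq on mouse build GRCm38.p6, the hairpin Mir212 lies at chr11:75173388-75173478 and Mir132 at chr11:75173682-75173747, both on the plus strand and 203 bases apart. In the GENCODE M21 annotation of that build both fall in intron 1 of the non-coding gene 1700016P03Rik and overlap none of its exons. The deposited counts were made on another build (mm9), so these positions serve only to place the genes.

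The 4 mature sequences are shown because the seed, bases 2 to 8 counted from the 5′ end and printed in capitals, decides which transcripts a miRNA can bind.
miR-132-3p: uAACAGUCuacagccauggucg
miR-212-3p: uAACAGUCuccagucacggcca
miR-132-5p: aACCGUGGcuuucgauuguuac
miR-212-5p: aCCUUGGCucuagacugcuuacu
Both 3p arms share the seed AACAGUC, and no other mature name in the table has it. They differ at 5 of 22 positions, written with the base of miR-132-3p first: A10C, C14U, U17C, U20C and G22A, all of them outside the seed. The 5p arms have different seeds from each other, and each seed belongs to that arm alone. Compared without gaps, no member came closer than 9 differences to any mature miRNA outside the cluster.

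The hairpins are shown with both mature arms in capitals, since the main result below concerns the balance of reads between these arms.
Mir212: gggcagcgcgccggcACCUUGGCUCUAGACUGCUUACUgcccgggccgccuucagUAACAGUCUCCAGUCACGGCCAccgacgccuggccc
Mir132: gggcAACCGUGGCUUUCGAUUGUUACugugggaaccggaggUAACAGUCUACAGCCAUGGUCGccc

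Libraries held 313766 to 689475 counts in EVs and 126910 to 202358 in Cells. Levels are given as CPM, a miRNA's reads scaled to a common total per library, and 1 read equalled 1.45 to 3.19 CPM among EVs and 4.94 to 7.88 CPM among Cells. Of 5 listed oligodendrocyte markers none was at 0 in all libraries of a group. The same held for the listed markers of other cell types, so presence alone does not identify the cells. The most abundant of the 5 in Cells was miR-219a-2-3p, which promotes oligodendrocyte differentiation, at 23529 ± 5180 CPM (SD, n = 3). In Cells the 5 summed to 33961 to 43435 CPM, and 6 listed neuronal markers to 46797 to 63686 CPM. Whether the replicates came from separate cultures is not stated in the labels, so the p-values reflect only how these libraries spread, and that spread may be technical.

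In EVs both 3p arms were higher than in Cells and both 5p arms were lower. miR-132-3p was about 2.46 times and miR-212-3p 2.76 times as high in mean CPM, while miR-132-5p stood at 0.63 and miR-212-5p at 0.34 of its level in Cells. With edgeR's quasi-likelihood test and Benjamini-Hochberg (BH) adjustment over the 336 miRNAs tested, 2 of the 4 members were called higher and 2 lower at an adjusted p under 0.05. Calls were common in this comparison, at 28.6% of all tested miRNAs higher and 28.9% lower, so that being called does not set the members apart. The CPM values of the groups did not overlap for any of the 4, and among all tested miRNAs 47.3% were higher in EVs without overlap and 20.2% lower. What the members show is a split by arm within each hairpin.

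miR-132-3p, the guide strand of its hairpin, was by far the most abundant member. It stood at 9949, 11050 and 8656 CPM in EVs replicates 1 to 3 and at 3931, 4428 and 3682 CPM in Cells replicates 1 to 3. Each EV library was thus above each cell library, and the spread within a group was small beside the gap. By mean level it ranked 27 of 1906 in EVs and 41 in Cells. Its log2 fold change, EVs over Cells, was 0.84 (SE 0.20, edgeR BH-adjusted p = 0.0058), and it rested on 13723 reads in EVs and 1921 in Cells.

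miR-212-3p, which carries the same seed, rose as well but at a far lower level. The EV libraries had 443, 389 and 422 CPM of it, the cell libraries 102, 173 and 178 CPM. The EV libraries lay close together, and the cell libraries, of which replicate 1 was the lowest, held only 16, 22 and 36 reads. The log2 fold change was 1.01 (SE 0.22, edgeR BH-adjusted p = 0.00416). Both 3p arms together gave the seed AACAGUC a level of 10303 ± 1183 CPM in EVs, against 4165 ± 388 CPM for Cells (SD, n = 3 each). miR-212-3p supplied 4.10% ± 0.64 of these seed reads in EVs and 3.64% ± 1.04 in Cells, with ranges that overlapped (3.40 to 4.65% and 2.54 to 4.61%).

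miR-132-5p, the partner strand of miR-132-3p, fell. Its levels were 218, 344 and 268 CPM in the EV libraries, against 512, 402 and 405 CPM in the cell libraries. The highest EV library, replicate 2, came within a small margin of the lowest cell library, and the 95% exact binomial intervals of those 2 libraries, 282 to 416 and 299 to 528 CPM, overlapped. The log2 fold change was -1.14 (SE 0.27, edgeR BH-adjusted p = 0.00616).

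miR-212-5p was the least abundant member in both groups. It had 13, 21 and 29 reads in the EV libraries, or 30.2, 66.9 and 42.1 CPM, and 33, 10 and 24 reads in the cell libraries, or 211, 78.8 and 119 CPM. Cells replicate 1 was the highest, and Cells replicate 2 lay only just above EVs replicate 2, with exact binomial intervals of 37.8 to 145 and 41.4 to 102 CPM. The log2 fold change was -2.08 (SE 0.48, edgeR BH-adjusted p = 0.00519). It lay between -2.52 and -1.54 when a library was left out. The exact binomial intervals cover counting error only and leave out the spread between libraries. PCR copies of a molecule are not independent, so the intervals may be too narrow even for counting error.

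**Figure D1:**
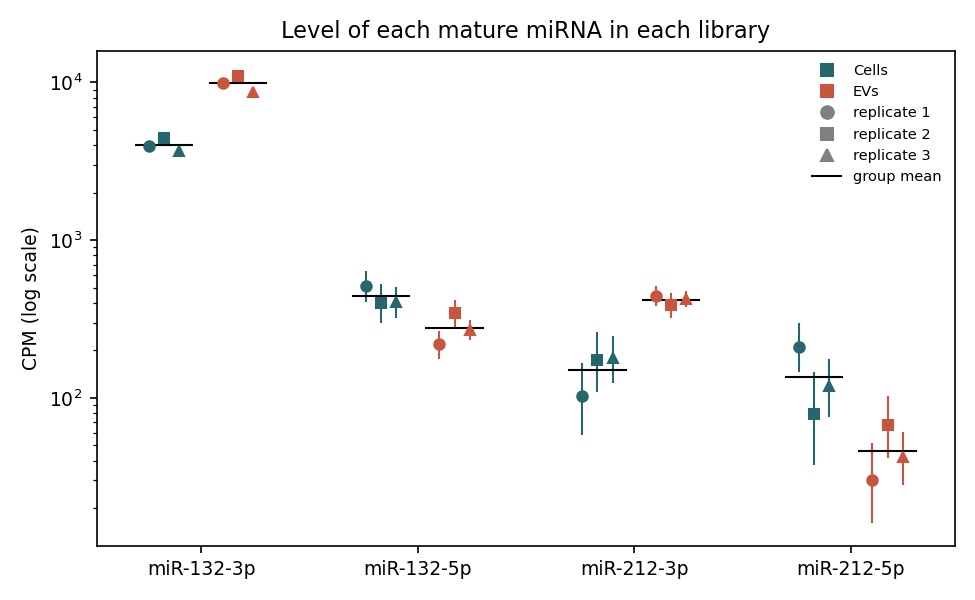
CPM of each member in each library on a log axis, with group means as black lines and 95% exact binomial intervals of counting error as vertical bars. In EVs (red) the 3p arms are above and the 5p arms below their levels in Cells (green), and no pair of groups overlaps.

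These directions are relative to the scaling between libraries, which used the trimmed mean of M-values (TMM). With library size only, all log2 fold changes shifted upwards, from a median of 0.06 to one of 0.54, and 71.2% of called miRNAs were higher in EVs in place of 49.7%. The members moved by a like amount and kept their direction and call: miR-132-3p stood at 1.30, miR-212-3p at 1.46, miR-132-5p at -0.67 and miR-212-5p at -1.59.

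**Figure D2:**
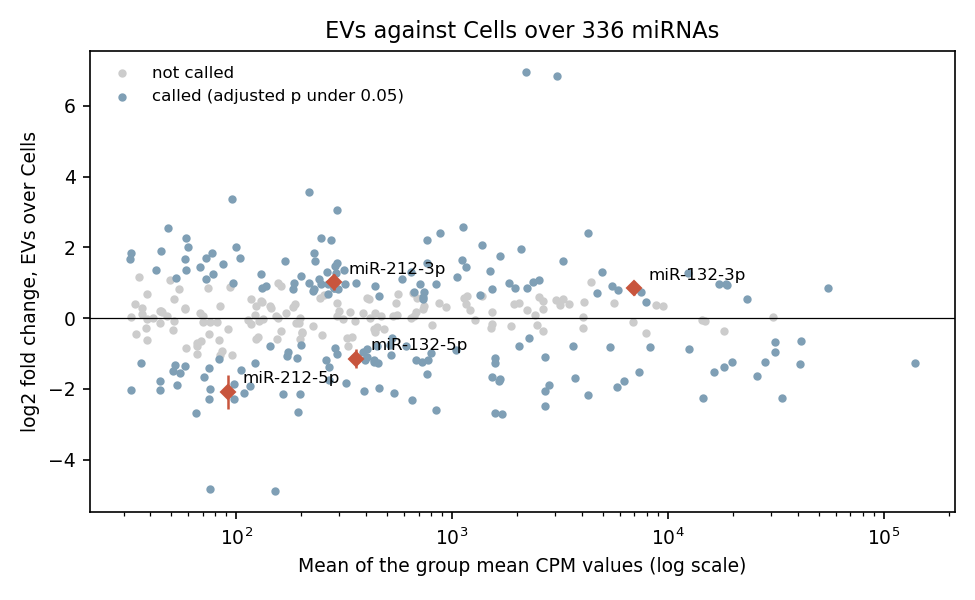
Log2 fold change (EVs over Cells, edgeR) against the mean of the group mean CPM values, on a log axis, for 336 miRNAs, with the 4 members as red diamonds with their SE. Counted from the highest log2 fold change, miR-132-3p (0.84) took rank 84 and miR-212-3p (1.01) rank 59. In the same order miR-132-5p (-1.14) took rank 269 and miR-212-5p (-2.08) rank 318.

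The arm ratio compares reads within a hairpin and a library, and is therefore free of the scaling between libraries. For miR-132, the 5p arm made up 2.15, 3.02 and 3.01% of the hairpin's reads in EVs replicates 1 to 3, and 11.5, 8.32 and 9.92% in Cells replicates 1 to 3. The groups were well separated (29.9% of the 187 hairpins tested were lower in EVs with no overlap), and the highest upper limit in EVs, 3.64%, was below the lowest lower limit in Cells, 6.26% (95% exact binomial). There were 32.1 to 45.6 reads of miR-132-3p for each read of miR-132-5p in EVs and 7.67 to 11.0 in Cells.

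For miR-212 the arms were far closer to balance in Cells. The 5p arm held 6.37, 14.7 and 9.06% of the hairpin's reads in EVs and 67.3, 31.2 and 40.0% in Cells. In Cells replicate 1 the 5p arm outnumbered the 3p arm, by 33 reads to 16, and in the other two cell libraries the 3p arm had more reads, by 22 to 10 and 36 to 24. The exact binomial intervals in Cells were wide, at 52.5 to 80.1%, 16.1 to 50.01% and 27.6 to 53.5%, because only 32 to 60 reads of the hairpin were counted per library. The lowest of these limits lay below the highest upper limit in EVs, 21.6%, although the shares themselves did not overlap. Which arm of miR-212 led in Cells was thus not the same in all libraries, whereas in all 3 EV libraries the 3p arm led by 5.81 to 14.7 reads to 1.

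**Figure D3:**
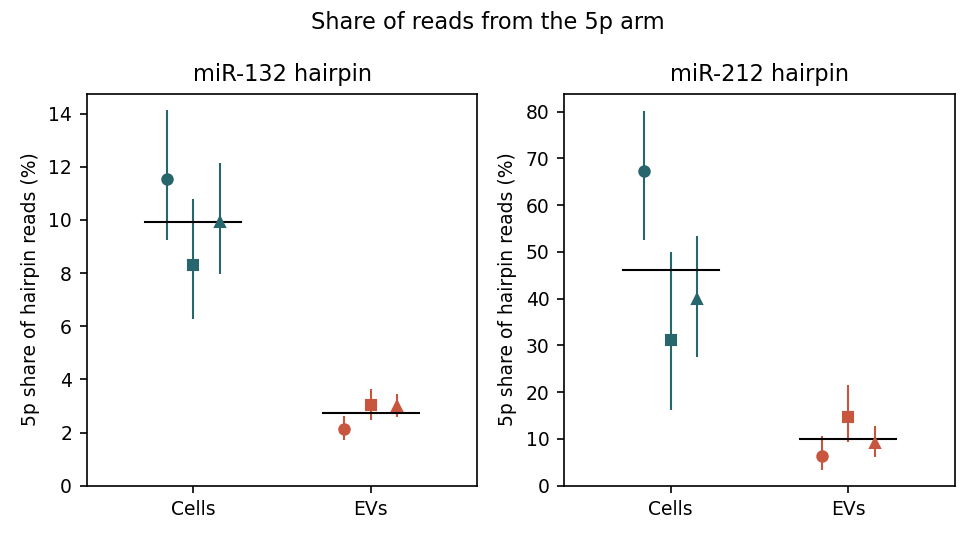
Share of each hairpin's reads that came from the 5p arm, in percent, per library (circle, square and triangle for replicates 1, 2 and 3), with 95% exact binomial intervals and group means as lines. The share is lower in each EV library than in each cell library, for miR-132 (2.72% against 9.92% on average) and for miR-212 (10.0% against 46.2%).

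Tested with limma over 187 hairpins on log2((5p + 0.5)/(3p + 0.5)), the arm ratio was called lower in EVs for both hairpins, as it was for 23% of all hairpins tested. For miR-132 it was -5.17 ± 0.29 in EVs and -3.19 ± 0.26 in Cells (SD, n = 3 each), a change of -1.98 (SE 0.41, limma BH-adjusted p = 0.00805). For miR-212 it was -3.21 ± 0.66 in EVs and -0.22 ± 1.10 in Cells, a change of -3.0 (SE 0.62, limma BH-adjusted p = 0.00805). These changes were not shown to differ: that of miR-132 was smaller in size by 1.01, with an exact permutation p of 0.2, two-sided, in a test added after the counts were seen, and 3 against 3 cannot give a p below 0.1.

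Cells replicate 1 had the highest 5p share in both hairpins and EVs replicate 1 the lowest. Without Cells replicate 1, the changes were -1.86 for miR-132 and -2.38 for miR-212 (limma BH-adjusted p = 0.0185 for both). Without EVs replicate 1 they were -1.82 and -2.69 (limma BH-adjusted p = 0.041 for both). Since the EV libraries were deeper, all libraries were also thinned to 126910 counts, which gave -2.05 (limma BH-adjusted p = 0.023) and -2.67 (limma BH-adjusted p = 0.0449).

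Shifts of arm ratio were not rare among other hairpins. A lower ratio of 5p to 3p in EVs was called for 43 of the 187 hairpins and a higher one for 24 (12.8%). The median change over all hairpins was -0.46, within a range from -3.63 to 3.88. Ordered from the lowest, the change of miR-212 took rank 8 and that of miR-132 rank 28. In 117 of the 187 hairpins (62.6%) the less abundant arm was relatively lower in EVs, with a median change of -0.44, and 45 such decreases were called against 22 increases of the less abundant arm. These counts used the added 0.5 on libraries of unequal depth. Where the less abundant arm had few reads or none, the added 0.5 can by itself make its ratio lower in the deeper EV libraries. The counts were not repeated with another added value or on thinned libraries. In both hairpins of the cluster the less abundant arm over all libraries was 5p.

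**Figure D4:**
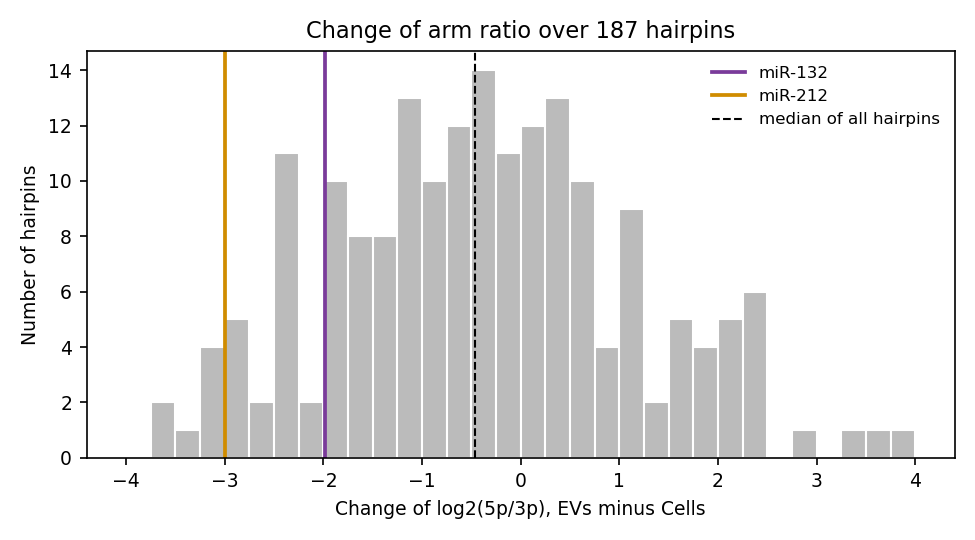
Number of hairpins by their change of log2(5p/3p), EVs minus Cells. miR-132 (-1.98) and miR-212 (-3.0) lie to the left of the median of all 187 hairpins (dashed, -0.46), inside the range of the others.

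Since the hairpins are neighbours, their reads were also set against each other. Summed over both arms, miR-132 had 10162 ± 1235 CPM in EVs against 4453 ± 372 CPM for Cells, and miR-212 had 464 ± 8.78 against 287 ± 31.8 CPM (SD, n = 3 each). There were 21.5, 25 and 19.2 reads of miR-132 for each read of miR-212 in EVs replicates 1 to 3, and 14.2, 19.2 and 13.8 in Cells. The groups barely failed to overlap, with EVs replicate 3 and Cells replicate 2 almost level. On the log2 scale the ratio was higher by 0.50 in EVs (exact permutation p = 0.1, two-sided, the smallest that 3 against 3 allows; BH-adjusted p = 0.2 over 4 such ratios). Between libraries of the same replicate number it was higher in EVs by 0.61, 0.40 and 0.49, in 3 of 3 pairs, and the exact sign permutation over these pairs gave p = 0.25, the smallest that 3 pairs allow.

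The ratio was also taken for each arm. Among 3p reads alone there were 22.5, 28.4 and 20.5 reads of miR-132-3p for each of miR-212-3p in EVs and 38.4, 25.5 and 20.7 in Cells. These ranges overlapped, and the log2 ratio differed by -0.18 (exact permutation p = 0.7; BH-adjusted p = 0.7). Among 5p reads there were 7.23, 5.14 and 6.38 reads of miR-132-5p for each of miR-212-5p in EVs and 2.42, 5.10 and 3.42 in Cells, a log2 difference of 0.83 (exact permutation p = 0.1; BH-adjusted p = 0.2). The exact test of these ratios could not pass the threshold in this design, and no model-based test of them was run.

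**Figure D5:**
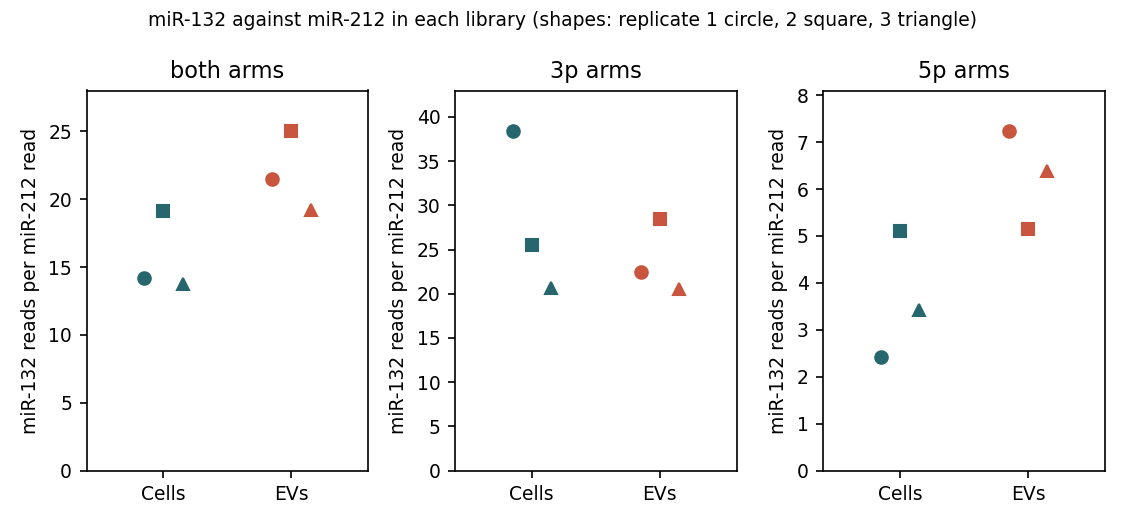
Reads of miR-132 per read of miR-212 in each library, for both arms together, for 3p arms and for 5p arms, on axes that start at 0. The 3p ratios of EVs (20.5 to 28.4) fall within those of Cells (20.7 to 38.4) but for one library, while the 5p ratios of EVs (5.14 to 7.23) are all above those of Cells (2.42 to 5.10).

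Within groups and with TMM scaling, both hairpins ranked the 3 EV libraries in the same order and the 3 cell libraries in different orders. This was not tested, and the TMM factor of a library applies to both hairpins alike. In plain CPM the order in EVs differed too. EVs replicates 1 to 3 had 10167, 11394 and 8924 CPM of miR-132, and 473, 456 and 464 CPM of miR-212. In EVs replicates 1 to 3 the log2 CPM of the hairpin sums (TMM scaling) lay -0.03, 0.29 and -0.26 from the group mean for miR-132 and -0.01, 0.09 and -0.08 for miR-212. The SD in EVs was 0.28 for miR-132, 0.09 for miR-212 and 0.19 for their log2 ratio. In Cells the deviations were 0.16, 0.03 and -0.20 for miR-132 and 0.29, -0.26 and -0.03 for miR-212, with SDs of 0.18, 0.28 and 0.26 for the ratio. With TMM scaling, Cells replicate 2, where miR-212 had 32 reads, was the library of the 6 in which the hairpins lay on opposite sides of their group means. By plain CPM, set against the group mean CPM, they did so in EVs replicate 2 and in Cells replicates 1 to 3. Cells replicate 1 was close to the group mean for miR-132, at 4443 against 4453 CPM.

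Likeness of profiles was measured as the root mean square difference of log2 CPM (TMM, prior count 2) over the 6 libraries, after each miRNA was centred on its own mean. The profiles most like that of miR-132-3p were those of miR-101a-3p (0.079), miR-434-3p (0.081), miR-370-3p (0.12), miR-30e-5p (0.13) and miR-484 (0.15). miR-212-3p, with only 16, 22 and 36 reads in Cells replicates 1 to 3, stood at 0.31, rank 51 of 335. How much the counting error of such low counts adds to this distance was not tested. The profiles most like that of miR-212-3p were those of miR-17-5p (0.030), miR-20a-5p (0.13), miR-188-5p (0.15), miR-362-3p (0.17) and miR-106b-5p (0.17), and miR-132-3p took rank 35. By contrast the arms of one hairpin were far apart, at 1.00 for miR-132 and 1.59 for miR-212. These are descriptions over 6 libraries, in which the difference between EVs and Cells makes up most of each profile.

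Other miRNAs that neuronal activity, CREB, BDNF or Mef2 is known to regulate, or that act in activity-dependent change of synapses, went both ways. Of 16 such miRNAs, all other than the members, 14 were tested, of which 7 rose and 2 fell, where 28.6% of all tested miRNAs rose and 28.9% fell. The median of their log2 fold changes was 0.51, against 0.06 for all miRNAs in the fit. With library size only, 9 rose and 0 fell, beside 148 and 60 of all 336. With the pairing of replicate numbers in the fit 6 rose and 2 fell, and without EVs replicate 1, or without EVs replicate 2, 5 rose and 2 fell. Its most abundant member, miR-181a-5p, which is expressed widely in brain, had 38800 ± 2756 CPM in EVs, against 44162 ± 1158 CPM for Cells (log2 fold change -0.66, edgeR BH-adjusted p = 0.00378), and was not called with library size only (-0.19, adjusted p = 0.208) or with no count filter (-0.50, adjusted p = 0.0527).

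In the same list miR-124-3p, found mainly in neurons, had a log2 fold change close to those of the cluster's 3p arms. Its level was 24954 ± 4216 CPM in EVs, against 9453 ± 3476 CPM for Cells (log2 fold change 0.97, edgeR BH-adjusted p = 0.00832), but the call ended when EVs replicate 1 was left out (0.85, adjusted p = 0.0636), as it did without EVs replicate 2 (0.74, adjusted p = 0.0846). miR-92a-3p stood at -0.04 (adjusted p = 0.842), but library size only moved it to 0.42 (edgeR BH-adjusted p = 0.0297, called). miR-218-5p, a miRNA of motor neurons and other neurons, fell by 0.81 on the log2 scale (edgeR BH-adjusted p = 0.0104), a value that library size only moved to -0.35 (adjusted p = 0.108, not called).

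Of the 5 oligodendrocyte markers 2 rose and 3 fell, or 2 and 2 with library size only. The 2 that rose, miR-138-5p and miR-219a-5p, are also in the list of 16 activity-related miRNAs above, so the lists are not independent. Blocking on the replicate number, or leaving out replicate 2 of either group or Cells replicate 3, gave 1 that rose and 3 that fell. Their summed level ranged from 33557 to 36111 CPM across EVs and from 33961 to 43435 CPM across Cells. Markers of other cell types moved between the groups too, and no listed marker was at 0 in all libraries of a group. These marker counts stand beside the 28.6% higher and 28.9% lower among all tested miRNAs. Of 6 neuronal markers 3 rose and 1 fell. miR-124-3p, which rose, and miR-218-5p, which fell, are also in the activity-related list. The summed level of the 6 ranged from 100276 to 131741 CPM across EVs and from 46797 to 63686 CPM across Cells. Most of this sum was miR-128-3p, a miRNA of neurons, with 78838 ± 11196 CPM in EVs against 31365 ± 11281 CPM for Cells. Leaving out EVs replicate 1 reduced the number that rose to 0, and leaving out replicate 2 of either group or Cells replicate 3 reduced it to 1. Under library size only 4 rose and 0 fell, where 148 of all 336 tested miRNAs were higher and 60 lower. Of 5 microglial and myeloid markers 0 rose and 4 fell, with sums of 612 to 1936 CPM for EVs and 1592 to 4566 CPM for Cells. The most abundant was miR-146a-5p, which inflammatory signals induce, with 1018 ± 633 CPM in EVs against 2320.1 ± 1124 CPM for Cells. The number that fell dropped to 1 under library size only or without Cells replicate 3, and to 2 without Cells replicate 1. Of the mural and mesenchymal markers 3 of 4 were tested and 3 rose, led by miR-143-3p (2785 ± 1177 CPM in EVs against 569 ± 346 CPM). Of the red cell markers 2 of 3 were tested and 2 rose, led by miR-451a (4368 ± 1572 CPM in EVs against 27.6 ± 23.9 CPM). The summed levels of mural and mesenchymal markers (2473 to 4807 CPM against 362 to 1037), red cell markers (3944 to 7835 against 212.5 to 256) and the liver miRNA miR-122-5p (4194 to 8316 against 24.7 to 47.3) were all higher in EVs. The part of these cell types in the levels of miR-132 and miR-212 was not tested. In the bulk RNA of Cells, fewer cells of a type and less RNA per cell cannot be told apart. In the pellets, RNA released by a cell type and RNA brought by the medium cannot be told apart.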

How the data were processed

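Small RNA of 15 to 200 nt from 3 EV and 3 cell samples was sequenced for 51 cycles, per the labels' protocols. The authors deposited raw read counts for the mature miRNAs, with a separate table for each library. The submitters' processing notes name bcl2fastq 1.8.4, cutadapt 1.7.1, Bowtie 0.12.8, featureCounts 1.4.6-p4 and mouse build NCBIM37 (mm9). Not given in the sources used here are their settings, the annotation release, the handling of reads that match several places and any use of the 4 random adapter bases against PCR duplicates.

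Samples were grouped and numbered by their labels. EVs were compared with Cells by edgeR 4.0.16 (glmQLFit, glmQLFTest, R 4.3.3) on the counts, with TMM, filterByExpr at a minimum count of 10 and group as the only term. All 4 members passed this filter. Arm ratios were tested with limma 3.58.1 where each library had 10 or more counts for the hairpin, both arms together. Genomic copies of a miRNA were pooled by arm, so a hairpin can represent several loci. Ratios between hairpins used exact permutation tests. Library totals of 126910 to 689475 counts set the precision. A count of 0 would allow 3 reads, 4.35 to 23.6 CPM. No 2 libraries of a group agreed within sampling noise (chi-square over degrees of freedom 7.73 to 37.5). Both fits were also run on simulated data, with outcomes not reported here, and that run does not measure how certain the calls of the members are.

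EV and cell libraries of the same number tended to depart from their group means in the same way. Their correlations were 0.103 to 0.254, against -0.140 to 0.020 for other pairs. Deviations within a group cancel out, so positive values for same-number pairs push those of other pairs down. With so few libraries the correlations cannot decide whether the numbers pair the libraries, and the labels do not state it. The main tests left the replicate number out. It was used only as a block in alternative fits and in the sign permutation over same-number pairs.

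The members and lists were chosen with earlier results of these data known. The named miRNAs were the members, the 5 profiles most like each 3p arm, and up to 4 of the most abundant miRNAs of each list. The profiles named beside the 5p arms in the closing section were chosen after their values were seen. Mature sequences matched 1622 of the 1906 names, all 4 members included.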

Additional observations from a re-analysis of the deposited data

How the results depend on the processing

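The alternatives were other scaling (DESeq2 size factors, library size only, upper quartile), DESeq2 1.42.0, limma-voom, no count filter, a 10 CPM filter, thinning to 126910 counts, leaving out the most abundant miRNA, the replicate number as a block and leaving out each library. miR-132-3p, miR-132-5p and miR-212-3p kept their direction and call in 16 of 16 alternatives, with log2 fold changes of 0.60 to 1.30, -1.47 to -0.67 and 0.70 to 1.46. miR-212-5p kept both in 15 of 15 (-2.52 to -1.54) and was not tested after thinning, where it missed the count filter. The largest edgeR, DESeq2 or limma-voom BH-adjusted p among these was 0.0492, for miR-212-3p. The number of miRNAs called, 193, lay between 157 and 238.

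The arm changes of miR-132 (-2.12 to -1.82, 13 alternatives) and miR-212 (-3.44 to -2.38, 12 alternatives) also kept their direction and call. miR-212 was not tested with a minimum of 50 reads. The number of hairpins called for arm ratio was 67. It was 81 with a pseudocount of 1, 37 with a pseudocount of 0.1 and 72 with a minimum of 5 reads (208 hairpins tested). It was 40 with a minimum of 50 reads (117 hairpins tested) and 30 after thinning. Without a library it was 36 to 60, lowest without EVs replicate 1. A lower ratio of 5p to 3p in EVs was called for 43 of 187 hairpins in the main fit. That number was 54 with a pseudocount of 1, 23 with a pseudocount of 0.1 and 22 of 175 after thinning. With the replicate number as a block, which changed no call of a member, miR-132 stood at -1.98 (limma BH-adjusted p = 0.00735), miR-212 at -3.0 (limma BH-adjusted p = 0.00153) and 69 hairpins were called. The higher ratio of miR-132 to miR-212 in EVs reversed to -0.18 with 3p arms only, and was 0.40 to 0.65 without a library. The cause was not tested. Depth limits miR-212 in Cells most, with 32 to 60 reads of the hairpin per library.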

Other observations

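The 5p arms, which were lower in EVs, were compared with other profiles after their values were seen. By the root mean square difference of centred log2 CPM over the 6 libraries, the profile of miR-132-5p was most like those of miR-181a-1-3p (0.090), miR-335-3p (0.11) and miR-9-5p (0.15). The profile of miR-212-5p was most like that of miR-130b-5p (0.29), and miR-132-5p took rank 6 of 335 there, at 0.47. No profile came as close to miR-212-5p as the nearest profiles came to the other members, and miR-212-5p had the fewest reads of the 4, at 63 in EVs and 67 in Cells.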
